A study of Mus musculus with 13 samples.

Results

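Leg muscle of control mice was compared between postnatal day 7 and day 14 on 6 oligonucleotide arrays, 3 at each age, with 1 control array at day 23 shown beside them as a description. These 7 arrays were chosen by their labels from 13 in the study, and the other 6 hold mdx leg muscle, 3 at day 7 and 3 at day 14. All probe sets other than the manufacturer's spike-in and quality controls were used, 12422 of the 12488 on the array. A probe set is a group of short oligonucleotides that together report 1 transcript. mdx mice lack dystrophin, the protein that links the cytoskeleton of the muscle fibre to its surrounding matrix, because of a mutation in Dmd. No treatment is named for any group, and the labels call the tissue leg muscle, control or mdx, with the age. The labels leave out strain, sex, which muscle was taken and how many animals an array stands for. They do not call the arrays of a group separate animals either, and the p-values below therefore measure the spread between these samples, which may be technical.

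Between the first and the second week after birth, mouse muscle fibres give up the embryonic and neonatal forms of myosin heavy chain, the motor protein of contraction, and take on adult fast and slow forms. Over the same period the satellite cells, the stem cells of muscle, slow their division, neuromuscular synapses mature and the growth genes expressed only from 1 parental copy are turned down in many organs. The surrounding connective tissue passes from laying down matrix to maintaining it, and fibres build up glycolytic enzymes and mitochondria.

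The skeletal myosin heavy chain genes lie side by side on chromosome 11, in the order Myh3 (embryonic), Myh2, Myh1 and Myh4 (adult fast), Myh8 (neonatal). The promoters of Myh3, Myh1, Myh4 and Myh8 are shown because the largest contractile differences below belong to this cluster. That of Chrna1, an acetylcholine receptor subunit, is added for the synapse. Each line gives the 250 bases before the RefSeq transcription start (GRCm38.p6), 5′ to 3′ on the strand of the gene. Capitals mark matches on either strand to the E-box CANNTG, the site read by MyoD-family factors, to the MEF2 motif and to the CArG box read by serum response factor.
Myh3, chr11:67078050-67078299, plus strand: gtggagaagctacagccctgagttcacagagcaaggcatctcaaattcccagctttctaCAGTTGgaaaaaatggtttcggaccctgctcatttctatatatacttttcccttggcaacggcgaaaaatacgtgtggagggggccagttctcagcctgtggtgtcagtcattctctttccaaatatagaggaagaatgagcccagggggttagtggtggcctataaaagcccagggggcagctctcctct
Myh1, chr11:67199852-67200101, plus strand: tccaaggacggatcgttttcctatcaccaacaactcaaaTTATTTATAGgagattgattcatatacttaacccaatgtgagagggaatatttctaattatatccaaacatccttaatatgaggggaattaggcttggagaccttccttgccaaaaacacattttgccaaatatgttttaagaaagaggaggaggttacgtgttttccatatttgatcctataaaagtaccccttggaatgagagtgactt
Myh4, chr11:67237562-67237811, plus strand: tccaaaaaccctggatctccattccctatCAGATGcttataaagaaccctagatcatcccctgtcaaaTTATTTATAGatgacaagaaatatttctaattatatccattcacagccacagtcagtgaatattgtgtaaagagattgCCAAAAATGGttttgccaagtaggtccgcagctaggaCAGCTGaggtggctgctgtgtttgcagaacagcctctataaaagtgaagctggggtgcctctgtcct
Myh8, chr11:67276874-67277123, plus strand: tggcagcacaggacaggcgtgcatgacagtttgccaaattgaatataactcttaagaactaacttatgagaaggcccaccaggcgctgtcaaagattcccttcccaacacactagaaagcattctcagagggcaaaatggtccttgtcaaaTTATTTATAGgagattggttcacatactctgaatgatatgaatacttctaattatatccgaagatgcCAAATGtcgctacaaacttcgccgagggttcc
Chrna1, chr2:73580339-73580588, minus strand: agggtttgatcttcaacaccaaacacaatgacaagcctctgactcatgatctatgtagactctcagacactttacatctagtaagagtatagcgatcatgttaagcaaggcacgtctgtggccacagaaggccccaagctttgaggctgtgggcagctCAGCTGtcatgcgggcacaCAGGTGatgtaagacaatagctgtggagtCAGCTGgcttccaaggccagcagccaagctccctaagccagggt

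The Myh3 window held 1 E-box, 191 bases before the start. The Myh2 window, which is not printed, held no match to any of the 3 motifs. Myh8 held an E-box at 32 bases and the MEF2 motif at 99. In Myh1 the MEF2 motif lay 211 bases before the start, and Myh4 held 2 E-boxes at 221 and 67 bases, the MEF2 motif at 182 and a CArG box at 104. Chrna1 held 3 E-boxes, at 92, 73 and 44 bases. Among 32851 mouse promoter windows of RefSeq the E-box occurred in 66.2%, the MEF2 motif in 2.92% and the CArG box in 1.47%. These are matches of letters and were tested for no function.

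Control muscle differed widely between the 2 ages. Of 12422 probe sets 7140 were bright enough to be tested, meaning above 620.6 on at least 3 of the 12 replicated arrays, and 3408 of them differed at a Benjamini-Hochberg adjusted p under 0.05 in limma (47.7%). At day 14, 1500 probe sets were higher (21.0%) and 1908 lower (26.7%), 1732 of them by over 2-fold. In 3986 probe sets the 3 day 14 values did not overlap the 3 day 7 values (55.8%), and 3272 of the 3408 called probe sets were among these. Changes of over 4-fold were seen in 232 probe sets, 73 higher and 159 lower. The size of this imbalance depended on how arrays were put on a common scale. Rises made up 44.0% of the calls after quantile normalisation, 50% on the values as deposited and 29.6% with every array set to the same median. The median difference of all tested probe sets, -0.10 on the log2 scale in the main analysis, was -0.31 with arrays set to the same median, and list medians below are to be read against -0.10. List counts below are to be read against the 21.0% of all probe sets that rose and the 26.7% that fell.

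The day 14 control arrays stood apart from the other control arrays. Rank correlations (Spearman, over probe sets) were 0.954 to 0.970 among day 7 arrays and 0.852 to 0.924 among day 14 arrays. Between the 2 ages they were 0.633 to 0.800. The day 23 array correlated at 0.877 to 0.879 with day 7 and at 0.649 to 0.812 with day 14. Deposited medians were 555 to 588 at day 7, 672 to 741 at day 14 and 506 at day 23. The deposited value of the 3′ control probe set of Gapdh divided by that of the 5′ one was 0.0204 to 0.310 at day 7, 0.345 to 0.535 at day 14 and 0.0915 at day 23, the 3′ probe set being the dimmer on every control array. The same ratio for beta-actin was 0.518 to 0.809 at day 7, 0.797 to 1.17 at day 14 and 1.32 at day 23, so the ages overlapped there and day 23 was highest. Each age lies in its own set of arrays, so age and any difference in handling between those sets cannot be told apart. The probe set's design also moved with the result: of 352 probe sets with the suffix _r, 194 rose and 22 fell, against 1018 and 1690 of 5768 with the plain suffix _at. Of 560 with the suffix _f, 186 rose and 67 fell. Whether array handling or probe design had a part in the differences below was not tested. Tnnt3, fast troponin T, marked the tissue as muscle on all 7 control arrays at 26878 to 49429. Acta1, skeletal actin, ran from 197 to 13886 within day 7 alone. Counts for gene lists are therefore also given without 4 arrays, a choice made after seeing the data. These are control day 7 replicate 2, mdx day 7 replicate 3 and mdx day 14 replicate 1, on which the brightest muscle probe sets read low, and control day 14 replicate 2, which had the lowest correlations with its group.

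The 2 developmental myosin heavy chains were much lower at day 14. Of 17 tested genes of the embryonic and neonatal list, 6 fell and 1 rose, a share of falls not far above the 26.7% of all probe sets, and the other 10 were not called. The median difference was -0.41, and 7 fell and 1 rose without the 4 arrays. Embryonic myosin Myh3 read 5964, 5317 and 6987 at day 7 and 442, 468 and 431 at day 14. The day 14 values were close to each other and far below every day 7 value. The difference was -3.59 ± 0.16 (log2, SE, n = 3 against 3), at an adjusted p of 8.38e-08. Neonatal myosin Myh8 read 42004, 45553 and 33562 at day 7 and 1861, 4727 and 4378 at day 14, a fall of 11.6-fold (-3.54 ± 0.35, adjusted p = 3.05e-05). The groups did not overlap for either myosin. At day 23 Myh3 read 928 and Myh8 read 1010. In whole muscle, fewer cells of a type and less RNA per cell cannot be told apart, here or below.

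Myl4, a light chain of embryonic and atrial muscle, fell by 2.38 (8529, 8006 and 6414 against 1172, 1075 and 2186), and a second Myl4 probe set rose by 1.04. Cardiac troponin T, Tnnt2, which immature skeletal muscle also makes, fell from 1382, 1415 and 1467 to 580, 402 and 578. Nes, the intermediate filament of young fibres and of progenitors, fell by 1.20, with day 14 values of 3806 to 5640. The smooth muscle gene Tagln fell by 0.53. Cardiac actin Actc1 was the member that rose, by 0.46 (35084, 41490 and 28339 against 49429, 46850 and 46850), close to the top of the scale, and its call was lost in 8 alternative analyses. Chrng, the fetal acetylcholine receptor subunit, read 1412, 1202 and 1270 against 539, 298 and 1466, 1 day 14 array lying above all of day 7, and was not called (-0.97 ± 0.43, adjusted p = 0.078).

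**Figure D1:**
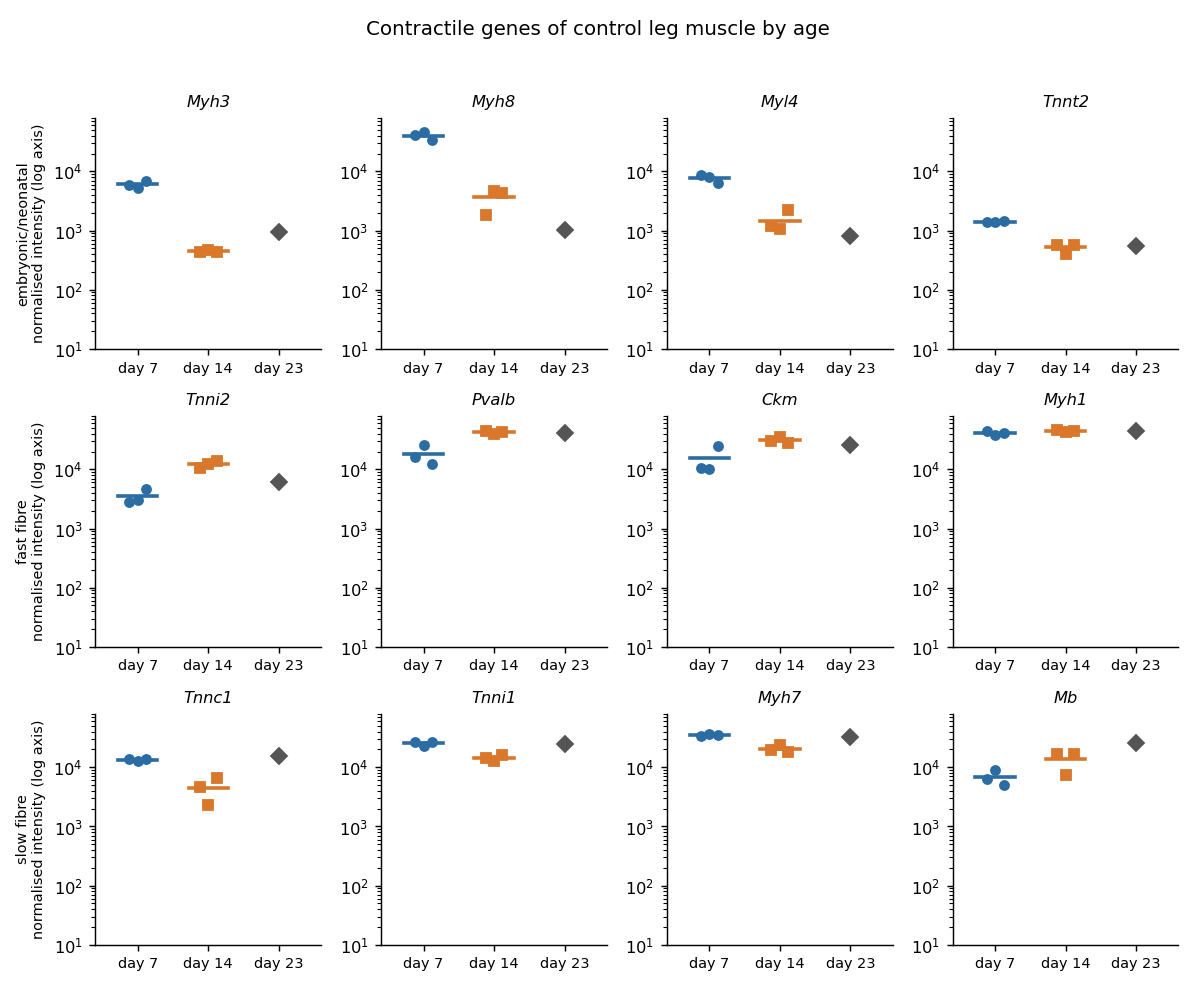
Normalised intensity (log axis) of 12 contractile genes on each control array at day 7 (circles), day 14 (squares) and day 23 (diamond, 1 array), with lines at the mean of 3 arrays; the rows are embryonic and neonatal, fast and slow genes. Myh3 and Myh8 drop at day 14 and stay low at day 23, while slow Tnnc1, Tnni1 and Myh7 drop at day 14 but read near day 7 at day 23.

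Several genes of adult fast fibres were higher at day 14. In this list 6 of 21 tested genes rose, a share not far above the 21.0% of all probe sets, 2 fell and 13 were not called. The median was 0.67, and 7 rose and 2 fell without the 4 arrays. With arrays set to the same median the counts were 3 and 2. Tnni2, the fast inhibitory troponin, read 2832, 3089 and 4581 at day 7 and 10528, 12162 and 13797 at day 14, a rise of 3.49-fold (1.80 ± 0.30, adjusted p = 6.15e-04). Pvalb, the calcium buffer of fast fibres, rose from 15936, 26165 and 12472 to 44515, 39148 and 42786 (1.28 ± 0.27) on an _f probe set. Another Pvalb probe set, which varied widely within day 7, was not called (-0.18, adjusted p = 0.90). Muscle creatine kinase Ckm, also on an _f probe set, read 10618, 10295 and 25260 against 30607, 35677 and 27966 (1.15 ± 0.28, adjusted p = 5.94e-03). Its day 7 arrays were unequal and still below all of day 14, and it was not called without the 4 arrays. Another Ckm probe set was not called (0.88, adjusted p = 0.063). Myoz1 of the fast Z-disc, the chloride channel Clcn1 and mitochondrial creatine kinase Ckmt2 rose by 0.80, 0.91 and 0.64.

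Gatm, which makes the precursor of creatine, fell from 15754, 16108 and 13507 to 3429, 3908 and 5130, and tropomyosin Tpm1 fell by 1.22. The adult fast myosin Myh1 was bright at both ages, at 38739 to 43794 on day 7 and 43294 to 46850 on day 14, and was not called (0.12 ± 0.17, adjusted p = 0.58). The brightest Myh4 probe set spread from 2408 to 28722 within day 7 and from 4843 to 29304 within day 14, so that no difference could be resolved (0.57, adjusted p = 0.77). Acta1 and the fast light chain Myl1 spread as widely and were not called either, with Myl1 at 58.0 on day 7 replicate 2 and 25556 on replicate 3. Among probe sets with any control array above 10000, 19 varied over 8-fold within a control group, and in 16 of them day 7 replicate 2 was the lowest of its group.

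Several slow fibre genes were lower at day 14, though not at day 23. Of 12 tested, 5 fell and 1 rose (median -0.49), the same numbers without the 4 arrays, and 7 fell and none rose with arrays set to the same median. Tnnc1, the slow and cardiac calcium sensor, read 13750, 12889 and 13913 at day 7 and 4623, 2310 and 6600 at day 14, a fall of 3.23-fold (-1.69 ± 0.30, adjusted p = 8.97e-04), and 15602 at day 23. Slow troponin I, Tnni1, fell by 0.82 and read 24551 at day 23 beside 22793 to 26878 at day 7. Myh7, slow myosin, fell from 34354, 36004 and 35471 to 19996, 23887 and 17967 (-0.78 ± 0.22) and read 31905 at day 23. The calcium pump Atp2a2 and the light chain Myl3 fell by 1.00 and 0.91. Of the 6 called slow genes only Mb, myoglobin, was nearer at day 23 to its day 14 mean. Mb rose by 0.95, from 6356, 8979 and 5082 to 16956, 7525 and 16592, with 1 day 14 array inside the day 7 range. The Mb call was lost in 6 alternative analyses, among them the same-median scaling and leaving out day 7 replicate 1 or 3 or day 14 replicate 1 or 3.

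At the synapse, Ache and Chrna1 were lower at day 14. Ache, which clears acetylcholine, read 3733, 2583 and 3582 against 1024, 347 and 744 (-2.22 ± 0.31, adjusted p = 2.06e-04), and 3217 at day 23. Chrna1, whose promoter with its 3 E-boxes is printed above, read 6021, 5169 and 4952 against 1680, 1017 and 2925 (-1.61 ± 0.29), and 1904 at day 23. For both genes every day 14 value lay below day 7. Etv4, an ETS factor known from synaptic nuclei, rose by 1.85 on an _r probe set and read 862 at day 23. In the whole list 4 of 11 fell and 1 rose, 3 and 1 without the 4 arrays, and 2 fell when any 1 of the 3 day 7 arrays was left out, Utrn and Lamb2 being the calls that were lost. Of the acetylcholine receptor's other subunits, Chrnb1 (-0.38, adjusted p = 0.051), Chrnd (-0.95, adjusted p = 0.12) and the brightest probe set of the adult-type Chrne (0.16, adjusted p = 0.48) were not called, while another Chrne probe set fell by 2.42.

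Of 11 calcium handling genes 1 fell and 1 rose. Without the 4 arrays 4 rose and 1 fell, Hrc, Cacna2d1 and S100a1 being the further rises, and 3 rose without day 7 replicate 3 and 2 without day 14 replicate 2. Cacng1, a subunit of the calcium channel of the triad, fell from 21660, 20320 and 15602 to 9157, 7121 and 9302 (-1.16 ± 0.17), and Calm2, a calmodulin gene, rose by 0.82. The other 9 tested genes were not called. They include the release channel Ryr1 (0.02 ± 0.24) and the store protein Casq1 (2.68 ± 1.21, adjusted p = 0.085), whose day 7 arrays read 4516, 999 and 19054. In the dystrophin complex 4 of 9 fell and 1 rose, 3 and 1 without the 4 arrays. Sspn, sarcospan, fell from 13544, 13674 and 12974 to 6522, 4734 and 6706 (-1.17 ± 0.17). Sgca, alpha-sarcoglycan, fell by 0.89 and read 13656 at day 23, above all day 7 arrays. The laminin chain Lama2 fell by 0.59, and dystroglycan Dag1 fell by 0.44 on its brightest probe set and rose by 0.53 on another. Dtna, alpha-dystrobrevin, rose by 0.88. Dmd itself read 822, 850 and 865 against 1150, 476 and 978 and was not called (-0.05 ± 0.30, adjusted p = 0.90).

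Among myogenic regulators the Notch ligand and receptor fell and a set of transcription factors split. Dll1 read 947, 1297 and 994 against 286, 227 and 643, and Notch1 read 1626, 1910 and 1620 against 861, 337 and 674, falls of 1.45 and 1.46. Id2, an inhibitor of MyoD-family factors, fell by 1.17, Myf5, a marker of satellite cells and myoblasts, by 0.81 and Mef2c by 0.47. Eya1, a transcriptional cofactor of early myogenesis, rose from 1238, 1352 and 1443 to 4215, 4389 and 3801 (1.58 ± 0.15, adjusted p = 2.45e-05), and Tead4 rose by 1.34. At day 23 Eya1 read 1246, within its day 7 range, and Tead4 read 1191, just above its highest day 7 value of 1163. Another tested Tead4 probe set was not called (-0.07, adjusted p = 0.91). The plain _at probe set of Eya1, too dim to be tested, overlapped between the ages, at 393, 265 and 363 against 386, 319 and 431. Itga7, the laminin receptor of fibres and satellite cells, rose by 0.85. Myog, which drives fusion, was not called (-0.14 ± 0.22), nor was Myod1 (-0.30, adjusted p = 0.13). In all 5 of 22 rose and 7 fell (median -0.31), 3 rose and 6 fell without the 4 arrays, 3 rose without day 7 replicate 2 or 3 or day 14 replicate 3, and 2 of these 12 were nearer day 14 at day 23. Pax7 was not analysed here.

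Most of the imprinted growth genes fell, and for most of these the day 23 array was nearer to day 14. Of 14 tested, 8 fell and 2 rose (median -1.16), and 9 fell and 2 rose without the 4 arrays. There Gnas was no longer called, and Cdkn1c was among the genes newly called. Plagl1, a transcription factor that regulates other imprinted genes, read 4863, 4371 and 4342 against 959, 531 and 1013 (-2.40 ± 0.29, adjusted p = 9.28e-05) and 597 at day 23. Dlk1, a Notch-family inhibitor of differentiation, read 26533, 24064 and 30913 against 3987, 6644 and 7475 (-2.20 ± 0.22) and 2028 at day 23. No array of either age overlapped for these genes. Mest fell by 1.90, Ndn by 1.82, Sgce by 1.37 and Peg3 by 0.94, with 1 further Peg3 probe set down by 1.09 and 1 up by 0.88. The noncoding Meg3 fell from 27002, 24276 and 29600 to 3553, 7358 and 6696 on its brightest probe set, while a second probe set rose from 1054, 184 and 1407 to 10043, 17870 and 18628.

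The 2 rises of the imprinted list rest on probe sets that varied much among arrays, and 1 was left without day 7 replicate 1 or without day 14 replicate 3. Igf2, the fetal growth factor, read 730, 1451 and 699 at day 7 and 19125, 8714 and 29600 at day 14 (4.14 ± 1.05, 17.6-fold, adjusted p = 6.91e-03), and 18810 at day 23. This direction is opposite to that of most other called genes of the list. A second Igf2 probe set, too dim to be tested, showed no rise, at 90.8, 42.4 and 182 against 52.0, 27.8 and 79.0. In mdx the Igf2 difference was not called (2.64, adjusted p = 0.078), with day 14 arrays at 544, 32480 and 12716. Gnas, which encodes a stimulatory G protein, read 1819, 372 and 22351 against 23685, 24113 and 29506, and its call was lost in 5 alternative analyses, among them leaving out day 7 replicate 1 or 2 or day 14 replicate 3. H19, the noncoding neighbour of Igf2, was not analysed here.

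Receptors and mediators of growth signalling were mostly lower at day 14. In the insulin and growth factor list 11 of 16 fell and 1 rose (median -0.89), the same numbers without the 4 arrays. Fgfr4, a receptor of regenerating muscle, read 1211, 1327 and 1350 against 137, 92.8 and 93.1 (-3.01 ± 0.23, adjusted p = 1.04e-05), and 279 at day 23. Fgfr1 fell by 1.81, and the kinases Akt1 and Akt2 by 1.40 and 1.81. For Akt1 the day 7 values were 6522 to 7270 and the day 14 values 2239 to 2844. The IGF-binding proteins Igfbp4, Igfbp3, Igfbp2 and Igfbp6 fell by 1.68, 1.57, 1.04 and 0.97. Igf1 alone rose, from 2262, 2054 and 1951 to 7366, 8938 and 5098 (1.71 ± 0.19), read 2470 at day 23, and had another probe set that fell by 0.83. The IGF receptor Igf1r and the growth hormone receptor Ghr were not called (-0.11 each).

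Many cell cycle genes fell. Of 38 tested, 20 fell and 1 rose (median -0.58), and 23 fell and none rose without the 4 arrays. Cks1b, a subunit of cyclin-dependent kinases, read 3234, 3158 and 3158 against 487, 124 and 234 (-3.38 ± 0.30, 10.4-fold, adjusted p = 1.99e-05). At day 23 Cks1b read 1076, on the log2 scale nearer to day 7 than to day 14. Its relative Cks2 fell by 2.11, the kinase Cdk1 by 1.71, the replication helicase subunit Mcm7 by 1.68 and the proliferation marker Mki67 by 1.45, while an _r probe set of Mki67 rose by 1.67. Cdk1 read 2169 to 2864 at day 7 and 516 to 927 at day 14. The day 23 array was nearer to day 14 for 18 of the 21 called genes, with Mki67 at 576 beside 842, 616 and 1591. Not every member followed: Pcna (-0.45, adjusted p = 0.12), Cdk4 (-0.08) and Foxm1 (0.60, adjusted p = 0.084) were not called, and Nek2 rose by 0.82 but lost its call in 6 alternative analyses. Marrow markers moved with this group: the summed level of 9 neutrophil genes was 22713 to 31332 at day 7, 5564 to 9309 at day 14 and 2517 at day 23, and its part in the fall of cell cycle genes was not tested.

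Splicing factors fell in 16 of 31 cases and rose in 2 (median -0.55), and 12 fell and 1 rose without the 4 arrays. Snrpg, a core spliceosome protein, read 6035, 7770 and 5578 against 2447, 2660 and 2359. Sfpq, Rbfox2 and Srsf5 fell by 2.04, 1.83 and 1.18. Mbnl1, which directs the adult splicing pattern of muscle, rose from 5609, 7873 and 4863 to 10278, 14016 and 11899 (0.99 ± 0.22, adjusted p = 3.19e-03) and read 11002 at day 23. Ribosomal protein genes had no common direction: 8 of 23 fell, 4 rose, and the median of 0.06 turned negative in some alternative analyses (lowest -0.27). Without the 4 arrays 7 fell and 3 rose. Falls without day 7 replicate 1 numbered 4 and rises 2. Rps19 fell by 1.73 and Rpl10a by 1.35. Rpl41 rose from 183, 149 and 1684 to 25776, 19498 and 29870 (5.79 ± 1.12), the largest rise among probe sets with 1 gene name, and 2 of the 3 mdx day 14 arrays were as high while the other read 718.

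Many connective tissue genes fell. In the list of non-collagen matrix genes 18 of 24 fell and none rose (median -0.85), the same numbers without the 4 arrays. Mfap2, a microfibril glycoprotein of elastic fibres, read 8205, 8088 and 7873 at day 7 and 1306, 1506 and 1748 at day 14 (-2.37 ± 0.13, 5.16-fold, adjusted p = 6.99e-07), and 2331 at day 23. The replicates lay close together at both ages and the groups did not overlap. Ogn, a small proteoglycan, fell by 2.06, Tnc, tenascin of growing tendon and muscle, by 1.95, the proteoglycans Bgn and Vcan by 1.52 and 1.36, and Postn, periostin, by 1.44. A second Bgn probe set rose by 0.49. Eln, elastin, read 23486, 21247 and 22238 against 13826, 13169 and 14069. Decorin Dcn, another small proteoglycan, was not called (-0.15 ± 0.16), nor was fibronectin Fn1 (0.54, adjusted p = 0.12).

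Fibrillar collagens and the enzymes that fold and cross-link them fell in 10 of 17 cases, with 1 rise (median -0.70), and in 12 cases with 1 rise without the 4 arrays. Ppib, a prolyl isomerase of the collagen chaperone complex, fell from 10873, 11954 and 10205 to 3031, 2578 and 4970 (-1.68 ± 0.20). Lox, which cross-links collagen, fell by 1.11, the collagen chaperone Serpinh1 by 0.83, Col5a2 by 0.78 and Col3a1 by 0.70. Of the other Col3a1 probe sets 1 fell by 1.45 and 1 rose by 0.97. Col1a1 read 9861, 476 and 32480 against 32137, 37926 and 35471 and was not called (adjusted p = 0.082), while Col1a2, its partner chain, read 36245, 27334 and 39576 against 19540, 26710 and 26042 and fell by 0.51, a second Col1a2 probe set rising by 1.68. P4hb rose by 1.11 on an _r probe set. In the basement membrane list 9 of 13 fell and 1 rose (median -0.70), 8 and 1 without the 4 arrays. Lama5 fell by 2.22, the type VI collagen chains Col6a2, Col6a3 and Col6a1 by 1.26, 0.98 and 0.70, and Lama4 by 0.95. Col4a1, the main network collagen, rose from 12716, 14001 and 22578 to 27334, 32644 and 28424 (0.88 ± 0.20), a call lost with arrays set to the same median, and its partner Col4a2 was not called (0.02 ± 0.19). Col18a1 was not called on its brightest probe set (0.19) and fell by 3.18 on another, from 2001, 1417 and 2127 to 154, 143 and 139.

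Energy metabolism moved less. Of 62 respiratory chain genes 18 rose and 4 fell (median 0.22), and 18 rose and 2 fell without the 4 arrays. Without day 14 replicate 1, 11 rose, and without day 7 replicate 1, day 14 replicate 2 or day 7 replicate 2 the falls numbered 2, 2 and 1. With arrays set to the same median 7 rose and 8 fell, while the median stayed above 0 in every analysis (0.08 to 0.37). Sdha, the flavoprotein of complex II, read 2341, 2754 and 2329 against 5723, 3588 and 5947 (0.99 ± 0.21) and 5542 at day 23. Cytochrome c, Cycs, rose by 1.31 and Atp5k, an ATP synthase subunit, by 1.20. Ndufb6 of complex I fell from 23307, 26354 and 17627 to 13636, 11778 and 10514 (-0.89 ± 0.18). Many of the brightest members, such as Cox6c (-0.07 ± 0.25) and Atp5c1 (0.17 ± 0.17), were not called.

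In the citric acid cycle 5 of 17 rose (3 without day 7 replicate 1 or day 14 replicate 3) and 1 fell, with a median of 0.09 that became -0.11 with arrays set to the same median, and 6 rose and 1 fell without the 4 arrays. Idh3a rose by 0.83, and mitochondrial Idh2 fell from 16479, 14356 and 15781 to 5603, 3241 and 5460 (-1.73 ± 0.22). Among glycolysis and glycogen genes 7 of 22 rose and 4 fell (median 0.31), 7 and 3 without the 4 arrays, and 4 rose without day 7 replicate 1 or without day 14 replicate 3. Phka1, a subunit of phosphorylase kinase, read 1014, 1107 and 1122 against 4472, 1460 and 3116 and reached 8872 at day 23. Gyg, the primer of glycogen, rose by 1.01 and Ugp2 by 0.78. Hk1 and Fbp2, hexokinase and muscle fructose bisphosphatase, fell by 1.17 and 1.65. Hk2, the insulin-regulated hexokinase, rose by 0.42.

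Fatty acid oxidation genes rose in 6 and fell in 4 of 24 cases, a share of rises not far above the 21.0% of all probe sets. The median of 0.17 became -0.17 with arrays set to the same median, and 3 rose without day 7 replicate 1. Without the 4 arrays 8 rose and 3 fell. The 3 clearest rises had tight replicates. Acads, the short-chain dehydrogenase, on an _r probe set, read 2657, 2907 and 3209 against 11399, 11993 and 11241 (1.96 ± 0.14, adjusted p = 7.84e-06). The plain _at probe set of Acads did not rise and was not called (-0.49, adjusted p = 0.052). Pdk4, the kinase that shuts pyruvate out of the mitochondrion, read 10106, 11113 and 10412 against 28547, 25604 and 29993 (1.40 ± 0.17), and Ucp3 read 1918 to 2029 against 4729 to 4881. At day 23 all 3 lay between the ages, at 5656, 17146 and 3156. Cpt1a, the liver form of the fatty acid gate, fell by 1.09 and Acadm, the medium-chain dehydrogenase, by 0.74. Of 8 cholesterol synthesis genes Fdps, Sqle and Idi1 fell by 1.05, 1.09 and 0.99, and Nsdhl rose by 0.92, a call lost without the 4 arrays or without day 7 replicate 1.

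Of 35 proteasome subunits 11 fell and 1 rose (median -0.35), a share of falls near the 26.7% of all probe sets. Without the 4 arrays 9 fell and 2 rose, and with arrays set to the same median 23 fell and none rose. Psmc2, an ATPase of the regulatory cap, read 9780, 9242 and 8774 against 5104, 5450 and 4986, and 10264 at day 23. For 10 of the 12 called subunits the day 23 array was nearer to day 7. Psmd10, gankyrin, read 887, 617 and 916 against 113, 104 and 61.2 (-2.49 ± 0.26) and 828 at day 23. Chaperones fell in 9 and rose in 4 of 29 cases, a share of falls not far above the 26.7% of all probe sets. Without the 4 arrays 8 fell and 5 rose. The chaperonin subunits Cct8 and Cct3 fell by 1.02 and 1.10. Hspa4 rose by 0.62 on its brightest probe set and fell by 1.47 and 1.20 on 2 others.

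The list of atrophy and turnover genes had 5 rises and 5 falls among 16, and 5 rises and 2 falls without the 4 arrays, where Mt2, Gabarapl1 and Map1lc3b were no longer called. Bnip3, a mitophagy receptor, read 1059, 1441 and 1010 against 3365, 2884 and 3508 and reached 5209 at day 23 (1.44 ± 0.15, adjusted p = 4.47e-05). Gadd45g rose by 1.53. Metallothionein Mt1 fell by 1.11 and the cell cycle inhibitor Cdkn1a by 1.01. Of 12 clock genes 4 rose and none fell, 5 and none without the 4 arrays, with a median of 0.19 that became -0.05 with arrays set to the same median: Nfil3 by 1.12, Per3 by 0.95, Per1 by 0.87 and Nr1d1 by 0.71. Nr1d1 read 1389, 1381 and 1396 against 2226, 1836 and 2996 and 4863 at day 23. The labels give no sampling hour. Among immediate early genes 7 of 21 rose and 2 fell, the median of 0.05 became -0.09 with arrays set to the same median, and 3 rose and 1 fell without the 4 arrays. Leaving out day 7 replicate 1 left 3 rises, and day 7 replicate 2, day 14 replicate 2 or day 14 replicate 3 left 4. The nuclear receptor Nr4a1 read 1681, 1049 and 1124 against 8861, 4382 and 6044 (2.24 ± 0.32, adjusted p = 2.18e-04) and 7780 at day 23. Socs3 fell by 1.04.

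**Figure D2:**
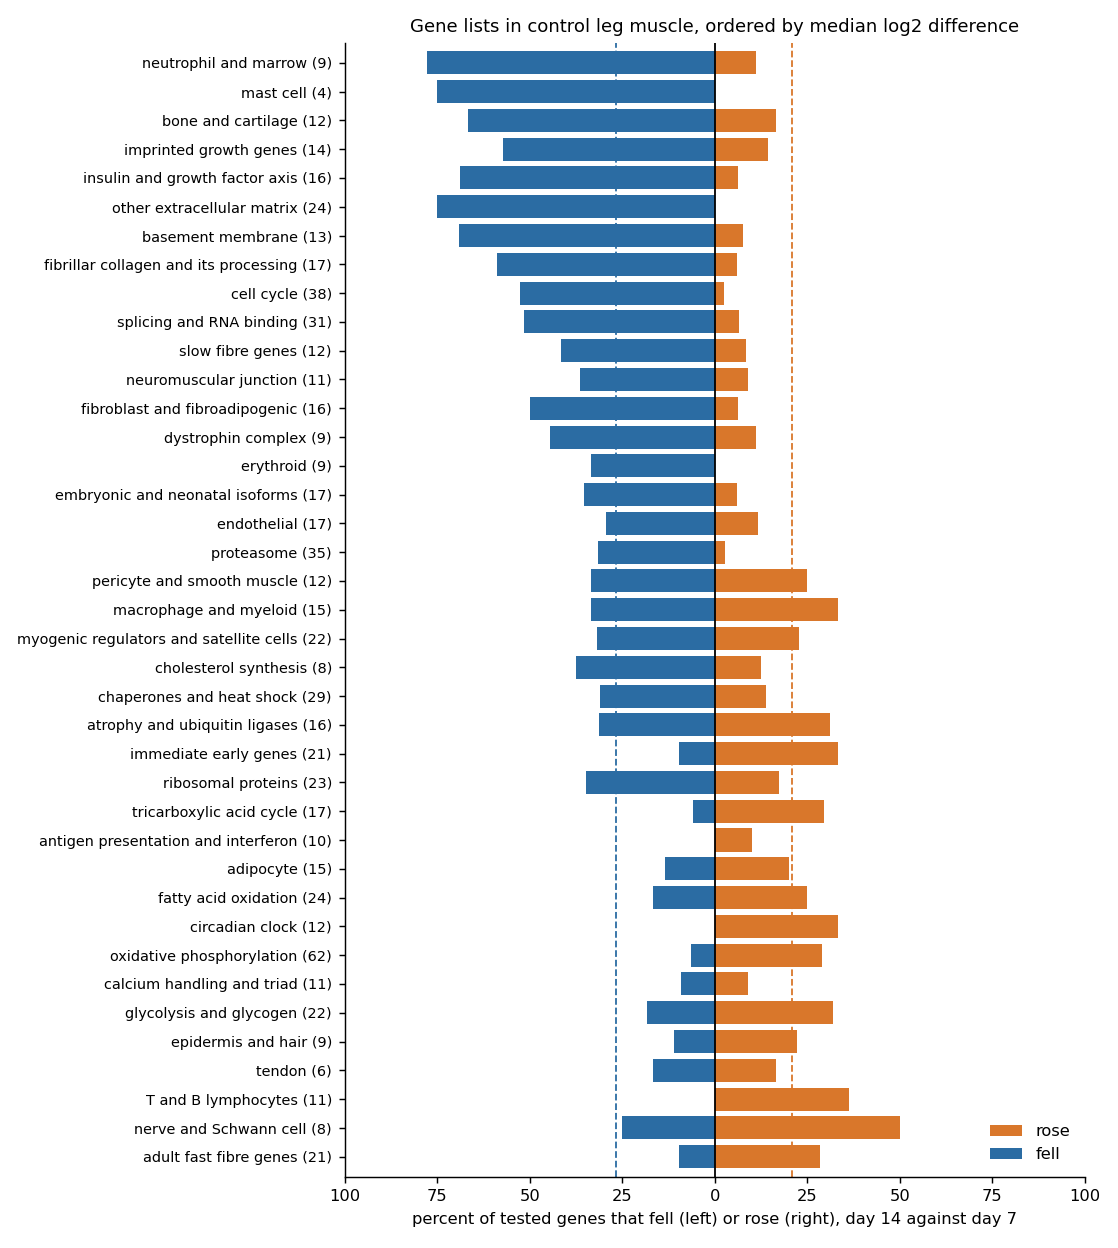
Percent of the tested genes of each list (number tested in brackets) that rose (right, orange) or fell (left, blue) at day 14, ordered by median log2 difference; dashed lines show the same percents over all 7140 probe sets, 21.0 and 26.7. Matrix, mast cell, marrow, bone, imprinted and growth factor lists extend farthest to the left.

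Markers of other tissues moved as well. Marrow genes fell: of 9 tested neutrophil genes 7 fell and 1 rose (median -1.90), and 4 fell and 1 rose without the 4 arrays. Mmp9, a gelatinase of neutrophils and osteoclasts, read 5989, 7717 and 4424 at day 7, 131, 65.7 and 170 at day 14 and 106 at day 23. This was the largest fall among probe sets with 1 gene name (-5.06 ± 0.99, 33.3-fold, adjusted p = 1.57e-03). The calgranulins S100a8 and S100a9 fell by 2.43 and 3.07 and the granule protein Ngp fell by 2.88. S100a8 read 5138, 8277 and 7161 against 1423, 887 and 1358, and 34.0 at day 23. Lcn2 rose by 1.80 on an _r probe set, while its plain _at probe set, too dim to be tested, read 520, 531 and 661 against 261, 63.8 and 207.

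Bone and cartilage genes fell in 8 and rose in 2 of 12 cases (median -1.41), 6 and 1 without the 4 arrays and 5 falls without day 7 replicate 2. Ibsp, a mineral-binding bone protein, read 2930, 4997 and 2365 against 157, 334 and 525, and 12.1 at day 23. Acp5 and Ctsk, enzymes of the osteoclast, fell by 3.23 and 1.28. The cartilage genes Col11a2 and Acan fell by 2.76 and 2.21, and Col9a1, also of cartilage, rose by 1.86. Day 7 replicate 2 was the highest of its group for Mmp9, Ibsp, Acp5 and Ctsk. The summed level of the bone list was 20433 to 33417 at day 7, 12139 to 13030 at day 14 and 7784 at day 23.

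**Figure D3:**
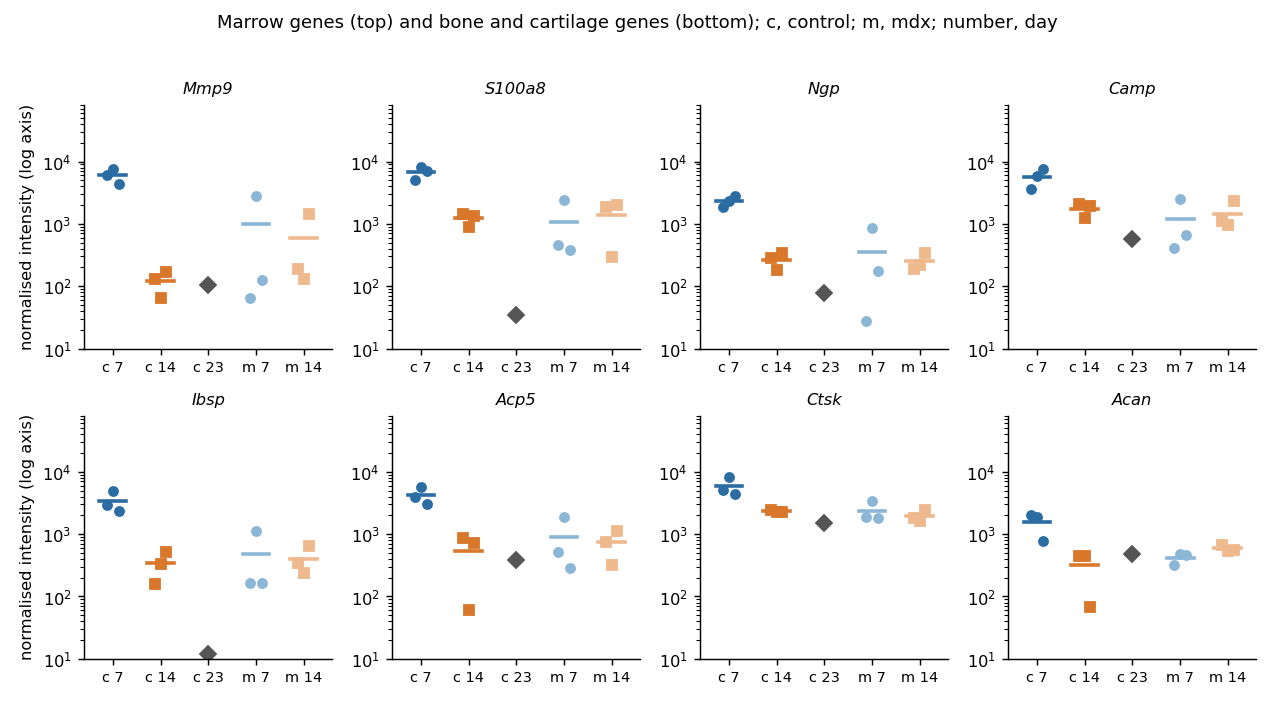
Normalised intensity (log axis) of 4 marrow genes and 4 bone and cartilage genes on every array, with control (c) at days 7, 14 and 23 and mdx (m) at days 7 and 14; lines are means of 3 arrays. The control day 14 points lie below the control day 7 points in all 8 panels, and the 2 mdx groups overlap in all panels but Acan.

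Mast cell genes fell in 3 of 4 cases, also without the 4 arrays: Cma1, a chymase, read 3565, 3098 and 3309 against 1001, 826 and 1145 (-1.70 ± 0.17, adjusted p = 3.24e-05), and Cpa3 and Tpsb2 fell by 1.36 and 1.46, another Tpsb2 probe set rising by 1.55. Their summed level was 6260 to 7768 at day 7 and 2371 to 2924 at day 14. Erythroid genes fell in 3 of 9 cases (3, with 1 rise, without the 4 arrays), a share not far above the 26.7% of all probe sets. The globins Hbb-b2 (-0.53, adjusted p = 0.053) and Hba-a1 (-0.27, adjusted p = 0.45) were not called. Leaving out day 7 replicate 1 or 3 left 1 erythroid fall. Macrophage genes split, with 5 up and 5 down of 15, and 4 up and 3 down without the 4 arrays, where the falls of Csf1r and Lyz2 were no longer called. The complement genes C1qa and C1qb are made together by macrophages, yet C1qa fell by 1.02 and C1qb rose by 2.09, a second C1qb probe set falling by 2.24. Tyrobp and Csf1r fell by 1.31 and 0.80 and Cx3cr1 rose by 0.98. Lymphocyte genes rose in 4 of 11 cases, among them Rag1 and Blk, and in none without the 4 arrays (2 without day 7 replicate 2).

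Endothelial genes fell in 5 and rose in 2 of 17 cases, a share of falls near the 26.7% of all probe sets. Without the 4 arrays 4 fell and 1 rose. Ramp2, a receptor-modifying protein of vessels, fell from 5250, 4307 and 4664 to 1839, 1716 and 2162 and Cd34 fell by 0.92, while Pecam1 rose by 1.37. Leaving out any 1 of the 3 day 7 arrays left 3 endothelial falls. Fibroblast genes fell in 8 and rose in 1 of 16 cases, also without the 4 arrays, Clec3b by 1.40 and Gsn from 12482, 11399 and 10842 to 7431, 3513 and 4329, and Gsn read 14409 at day 23, above its day 7 values. In the list of pericytes and smooth muscle 4 of 12 fell and 3 rose, 3 and 3 without the 4 arrays, with 2 falls without day 7 replicate 1 or 2 or day 14 replicate 3. Pdgfrb of mural cells fell by 1.47 and Smtn of smooth muscle fell by 2.36, and Des, desmin, which muscle fibres also make, rose by 0.85. Among 8 nerve and Schwann cell genes Stmn2, Gfap, Sox10 and Mag rose by 0.94 to 1.84, Mag on an _r probe set. Pmp22 and Gap43 fell by 0.83 and 1.17, with 4 rises and 2 falls also without the 4 arrays. Of the genes that rose, other probe sets too dim to be tested read lower at day 14 for Mag and Sox10. Those of Stmn2 and Gfap overlapped between the ages. The dim Mag probe set read 598, 385 and 288 against 114, 109 and 246, and that of Sox10 543, 272 and 269 against 138, 105 and 80.5. Fabp4, a fatty acid carrier of fat cells and vessels, rose by 0.89 in an adipocyte list with 3 rises and 2 falls among 15 (2 and 2 without the 4 arrays, 1 rise without day 7 replicate 1 or 2). The tendon list had 1 rise and 1 fall among 6, the antigen presentation list 1 rise (H2-Eb1, 1.03) among 10, and the epidermal list 2 rises and 1 fall among 9. Without the 4 arrays these were 2 rises and 1 fall, 1 rise, and 1 rise. What part the share of these cell types had in the muscle and matrix results was not tested.

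Other large changes lay outside the lists. H1f10, a linker histone, fell from 2349, 1449 and 2333 to 132, 98.3 and 130 and read 138 at day 23. Agtr2, the fetal angiotensin receptor, fell from 2177, 1796 and 1995 to 80.6, 60.6 and 379 and read 29.6 at day 23, and Myzap fell from 1080 to 1587 down to 57.6 to 107. For 3 further strong falls the day 23 array read near or above day 7. Smyd2, a lysine methyltransferase, read 2205 to 2592 at day 7, 208 to 266 at day 14 and 3631 at day 23. Plekho1 and Wnt4 read 1715 and 1641 at day 23. Other Plekho1 probe sets, which fell by 2.41 and 1.75, read 620 and 759 at day 23, below their day 7 values. Mmp13, a collagenase of cartilage and bone, fell by 3.26. Of the largest rises, Actn2, alpha-actinin of the Z-disc, read 123, 73.4 and 81.5 against 871, 596 and 1352, and 810 at day 23. The signalling gene Rhoc rose by 2.50 and its other probe set was not called (-0.28). Zfp94, Aopep and Slc29a1 rose by 3.92, 2.62 and 2.62 on _r probe sets. Another Slc29a1 probe set fell by 1.38, another Aopep probe set was not called (0.42, adjusted p = 0.11) and another of Zfp94 was too dim to be tested. On its _r probe set Aopep read 2008 at day 23, below its day 7 values. Cyp2c39, F2rl2, Cyp4a12b and H2-T18 rose by 2.91, 2.56, 2.47 and 2.89, and Ift46 by 2.56 with an uneven day 14 group of 4076, 466 and 2296. The Ift46 call was lost without day 7 replicate 1, day 14 replicate 1 or day 14 replicate 3, and its other probe set was not called (0.05, adjusted p = 0.83). For Larp7, 1 called probe set rose by 2.41 while another fell by 2.43. Of 247 genes with several called probe sets, 148 had all of them in 1 direction and 99 had some in each.

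The single day 23 array was nearer to the day 14 mean for 1087 of the 3408 called probe sets (31.9%), and nearer to the day 7 mean for the rest. For probe sets not called it was nearer to day 14 in 1660 of 3732 (44.5%). Falls were nearer day 14 in 36.3% and rises in 26.3%, and changes of over 4-fold in 60 of 232 (25.9%). Lists differed in this respect. The array was nearer day 14 for 6 of 7 called embryonic and neonatal genes, 9 of 10 imprinted genes, 18 of 21 cell cycle genes, 14 of 18 matrix genes and 10 of 11 glycolysis genes. It was nearer day 7 for 5 of 6 slow fibre genes, 10 of 12 myogenic regulators and 10 of 12 proteasome subunits. With 1 array there is no spread at day 23, and these counts describe that array.

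**Figure D4:**
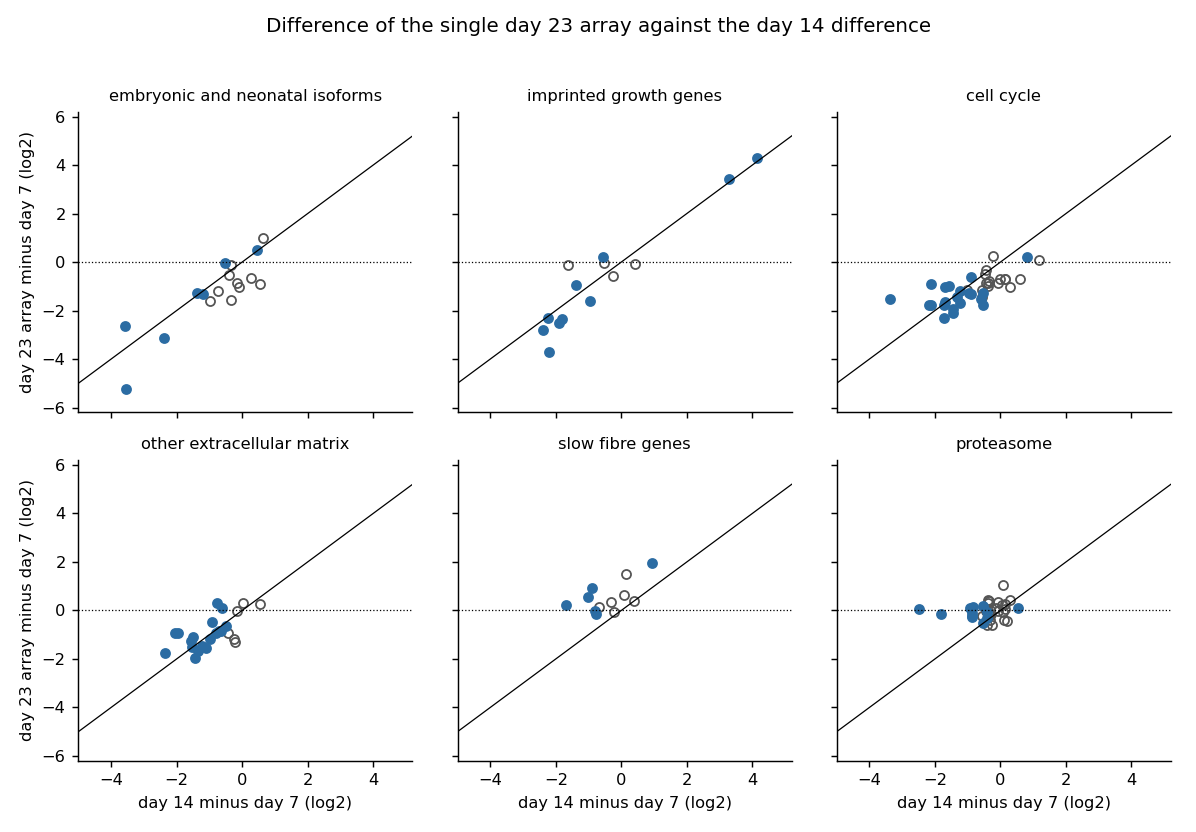
Log2 difference of the single day 23 array from the day 7 mean (vertical) against that of day 14 from day 7 (horizontal) for 6 gene lists, filled points being called at day 14. Points on the diagonal read the same at day 23 as at day 14 and points on the dotted line the same as at day 7; embryonic, imprinted, cell cycle and matrix genes run along the diagonal, and many slow fibre and proteasome genes lie near the dotted line.

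The difference over the same interval in mdx muscle uses none of the control arrays. Its test, however, shared with them the estimate of spread, the brightness filter and the normalisation. In mdx 1908 of 7140 probe sets were called between day 7 and day 14 (26.7%), 896 higher and 1012 lower. Fitted on the 6 mdx arrays alone, 2318 were called, 1814 of them shared. The counts that follow are from the joint fit. Of the control calls 1599 were called the same way in mdx, 46.9% of the control calls and 83.8% of the mdx calls, and 3268 of 3408 had the same sign (95.9%). The falls of Myh3 (-2.17), Myh8 (-2.78), Dlk1 (-1.98), Fgfr4 (-2.79) and Mfap2 (-2.03) were called in mdx too, as were the rises of Igf1 (1.36), Pdk4 (1.31) and Eya1 (1.06). Myh3 read 4149 to 4970 at day 7 and 858 to 1143 at day 14 in mdx, and the difference of its age changes was -1.42 ± 0.22 (adjusted p = 0.098). Of the rises 190, and of the falls 372, were called the same way in mdx and had the day 23 control array nearer to day 14.

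The test of the age change in control minus the age change in mdx called 1 of 7140 probe sets (0.014%), with 678 at an unadjusted p under 0.05. This was Snx17, a sorting nexin of endosomal recycling. In control it read 2133, 1747 and 2061 at day 7, 209, 277 and 267 at day 14 and 1870 at day 23. Its age change was -2.71 ± 0.17 in control and -0.54 in mdx, a difference of -2.17 ± 0.24 (adjusted p = 6.18e-03). The call on the difference was lost without day 7 control replicate 1 and without the 4 arrays, and a second Snx17 probe set rose in control by 1.55. Without day 14 control replicate 1 the test called 14 probe sets, without mdx day 7 replicate 2 it called 6, and without day 14 control replicate 3 or 2 it called 4 or 2.

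Apart from Col11a2 (-1.24 in mdx), the marrow and bone genes that fell in control had no fall called in mdx. In the neutrophil list the median was -1.90 in control and 0.43 in mdx, with 7 falls against none, and in the bone and cartilage list -1.41 and 0.07, with 8 falls against 1. Mmp9 differed by 0.04 in mdx and Ibsp by 0.15. Of the 3 mdx day 7 arrays 2 were low: Mmp9 read 63.6, 2757 and 125 there, beside 4424 or more on every control day 7 array. Ibsp read 163, 1121 and 167. The difference of the age changes did not pass the test for any of these genes. Called in opposite directions were 3 probe sets: Mt2, a metallothionein, at -0.60 in control and 0.66 in mdx, B3gnt2 at -1.20 and 1.19, and a probe set without a gene name, with adjusted p of the difference 0.25 to 0.29. Mt2 and B3gnt2 were named for this after their values were seen.

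**Figure D5:**
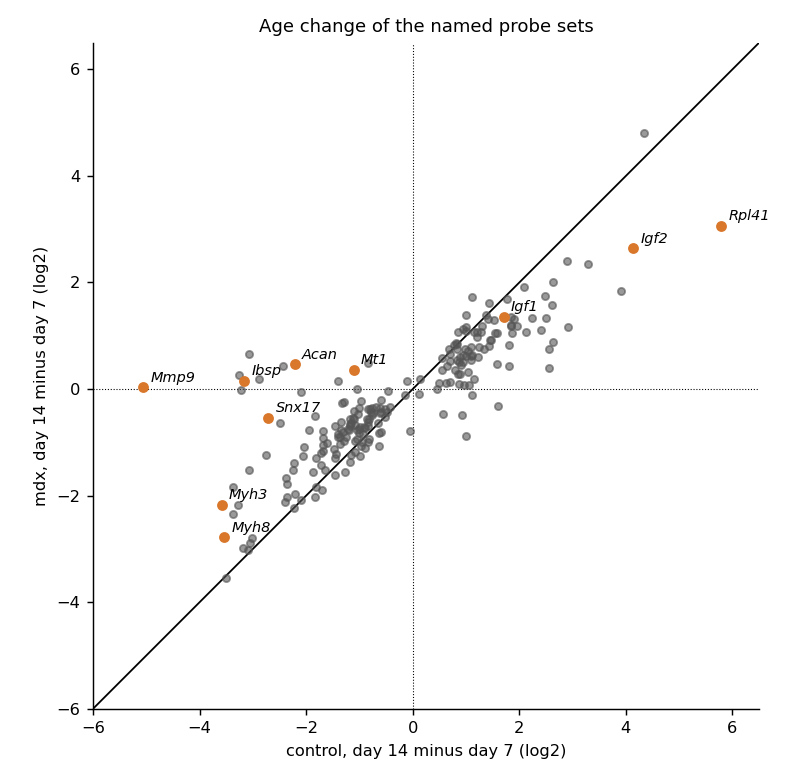
Log2 difference between day 14 and day 7 in mdx (vertical) against control (horizontal) for the named probe sets, with 10 labelled; the diagonal marks equal change. Many points lie along the diagonal, while Mmp9 and Ibsp lie far left near 0 in mdx and Snx17 lies left of the diagonal.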

How the data were processed

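Total RNA of leg muscle was hybridised to 13 Affymetrix arrays by a standard protocol, per the labels. The deposited values are linear intensity values per probe set, and the sources used here do not name the software that summarised them. Deposited array medians differed by 1.47-fold, so arrays were quantile normalised and log2(value + 62.1) was taken, the added constant being 10% of the median. Differences are on that scale, which understates the change of dim genes. The analysis kept 7140 probe sets above 621 on at least 3 of 12 arrays. limma (3.58.1, R 4.3.3) fitted the 4 groups of 3 arrays together, with an intensity trend and 8 residual degrees of freedom. Benjamini-Hochberg adjustment ran over all 7140, with a threshold of 0.05, and every adjusted p is from this fit. Values printed for single arrays are quantile normalised. Tables were joined with pandas 2.3.3 (Python 3.11.15).

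Gene names came from the platform annotation: 10833 probe sets had 1 symbol, 396 several and 1193 none. The brightest tested probe set stood for a gene in a list. Named were the 15 largest rises and falls without overlap, up to 4 genes per list in the more frequent direction and 2 in the other, and a few fixed genes. Further list members are named for context, chosen after their values were seen. The comparison, the lists and these rules were chosen with earlier results of these data known. No 2 arrays held identical values. On simulated data for the day 14 against day 7 comparison of control, with 200 of 7140 probe sets changed, 58% of changes of 1 and 92% of changes of 2 (log2) were recovered and 4 of 154 calls were false. The simulated noise was drawn separately for each probe set, and far fewer probe sets were changed than were called in the data. The simulation therefore does not gauge differences shared by a whole array. Alternatives were other constants, filters, scalings and thresholds, no trend, array weights, a replicate block, the control arrays alone, and each array left out. Depth has no meaning for arrays; the number of arrays limits the precision.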

Additional observations from a re-analysis of the deposited data

Results flagged for a closer look

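The age change of Snx17 differed between control and mdx by -2.17 ± 0.24 (log2, n = 3 arrays a group), the 1 probe set that passed limma's test of that difference (adjusted p = 6.18e-03). It was lower at day 14 on 3 of 3 control arrays.

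For 4 further genes the 3 day 14 control arrays lay all above or all below the 3 of day 7, and the mdx change had the opposite sign. None passed that test. Arrays of the 2 ages are not paired. Control groups did not overlap in 55.8% of all probe sets, and how many probe sets share the whole pattern was not counted. These genes were flagged from their values. Control minus mdx was 1.40 for Nsdhl, a cholesterol synthesis gene (adjusted p = 0.34). It was -1.47 for Mt1, a metallothionein (adjusted p = 0.10), 1.87 for Igha, an immunoglobulin chain (adjusted p = 0.34), and -2.68 for Acan, the cartilage proteoglycan (adjusted p = 0.34).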

How the results depend on the processing

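Of 222 named probe sets 215 were called. Of these, 162 kept their call in every alternative that tested them, 53 lost it in at least 1, and none reversed. These counts, and the lost calls of single genes above, leave out the cut at an adjusted p of 0.01. An alternative that left a probe set untested was not counted as a loss. The count of control differences, 3408, became 1904 with a filter at the 75th percentile (801 rises, 1103 falls) and 2090 at an adjusted p of 0.01 (919 and 1171). Leaving out 1 array gave 2586 to 3467 (rises 1135 to 1469, falls 1451 to 1998). Without the 4 arrays 2738 were called, 2429 of them shared. The mdx count became 783 at 0.01 (rises 344, falls 439), mdx falls 674 with the 75th percentile filter and mdx rises 592 on plain _at probe sets. Leaving out 1 array gave 1001 to 1502 in mdx (rises 452 to 726, falls 549 to 828). The difference between control and mdx gave 2 calls without the trend, 0 without the 4 arrays and 0 to 14 without 1 array. With the replicate block 3293 control probe sets were called, 3219 of them shared with the fit without it, 1761 in mdx and 1 for the difference. The labels' numbers did not pair arrays: deviations of same-numbered arrays correlated at -0.146 to 0.174 over 18 pairs. Signal near background limits dim genes, whose changes are understated.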
